A study of Saccharomyces cerevisiae with 11 samples.

Results

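The first 2 h of PAF1 shut-off were examined in budding yeast (Saccharomyces cerevisiae) by setting 1 array, from cells after 2 h of doxycycline, against 1 array from the same strain without doxycycline (0 h). These are 2 of the 11 arrays of the series. The strain, labelled TetO2-Paf1, carries PAF1 under a promoter that doxycycline represses, and total RNA had been made into biotinylated cRNA for Affymetrix yeast arrays. Arrays from 4, 5, 6 and 8 h of doxycycline (1 each), paf1 deletion cells (2 arrays) and wild type cells (2 arrays) are used for comparison. The 1 array of ctr9 deletion cells enters only the filter and fit of the strain arrays. As a group of 1 array it adds nothing to the spread between replicates. All cultures were in mid-log phase. The deletion and wild type cells grew in YPD medium with 4% glucose, while the labels name no medium for the TetO2-Paf1 cultures. No array of wild type cells with doxycycline is used here, so loss of Paf1 cannot be told apart from an effect of doxycycline or of time in culture. With 1 array a side there is no replicate and no test of the 2 h difference, and the number of arrays limits the precision.

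Paf1 is a subunit of the Paf1 complex, which travels with RNA polymerase II and is known to be needed for ubiquitylation of histone H2B, for methylation of histone H3 and for proper RNA 3' ends. Yeast cells that meet heat, starvation or other stress are known to raise genes for chaperones, antioxidants and reserve carbohydrates together and to lower genes for building ribosomes. The main activators of the stress genes are Msn2 and Msn4, and Hsf1 controls many chaperone genes.

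Each probe set was read as a signal, a linear brightness that the authors had scaled to a common level on each array. Signals under 5.6, the 10th percentile of the 6 time course arrays, were set to that value before the ratio of 2 h over 0 h was taken. Of 9275 probe sets that are not controls, 561 (6.05%) were at least 2-fold higher and 576 (6.21%) at least 2-fold lower at 2 h. Many of these were dim. Among the 2783 probe sets whose mean over the 6 arrays lay under its 30th percentile, 37.4, 21.9% were past 2-fold in either direction, against 5.60% of the 2284 with a mean of 500 or more. The gene-level results therefore use the 6492 probe sets at or above 37.4, of which 262 (4.04%) were at least 2-fold higher and 265 (4.08%) lower. The brightest probe set stood for a gene, which gave 4994 measured genes. Of these, 203 (4.06%) were at least 2-fold higher and 173 (3.46%) at least 2-fold lower, with a median log2 ratio of 0.04. At 1.5-fold the counts were 562 (11.3%) and 538 (10.8%). Of all 4994 measured genes, 2686 lay above their 0 h signal and 2307 below it.

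The median signal was 118 at 2 h and 114 at 0 h, and the 5' to 3' signal ratio of actin, a sign of RNA integrity, was 72.1% at 2 h and 69.2% at 0 h. Spike-in transcripts gave 1.14-fold the 0 h signal at 2 h. Control probe sets for ribosomal RNA differed, with a median of 7.95 at 2 h and 17.8 at 0 h, and 6 of 10 were at least 2-fold lower at 2 h. Both medians lay within the range of control probe sets without a target, which reached 28.1 at 2 h and 39.6 at 0 h. A difference between signals this dim may be noise. The 4 h array stood apart, with an actin ratio of 5.92% and spike-in signals 4.34-fold those of 0 h, and spike-in signals on the 6 h array were 3.93-fold those of 0 h. The 229 genes with several measured probe sets gave the only measure of error, a median difference of 0.27 between the log2 ratios of 2 probe sets of a gene. In 1 of 10 such pairs the difference was 1.10 or more. Of the 14 such genes whose brightest probe set was past 2-fold, 10 had all their other probe sets in the same direction and 3 had all of them past 2-fold as well. That spread holds no variation between cultures.

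**Figure D1:**
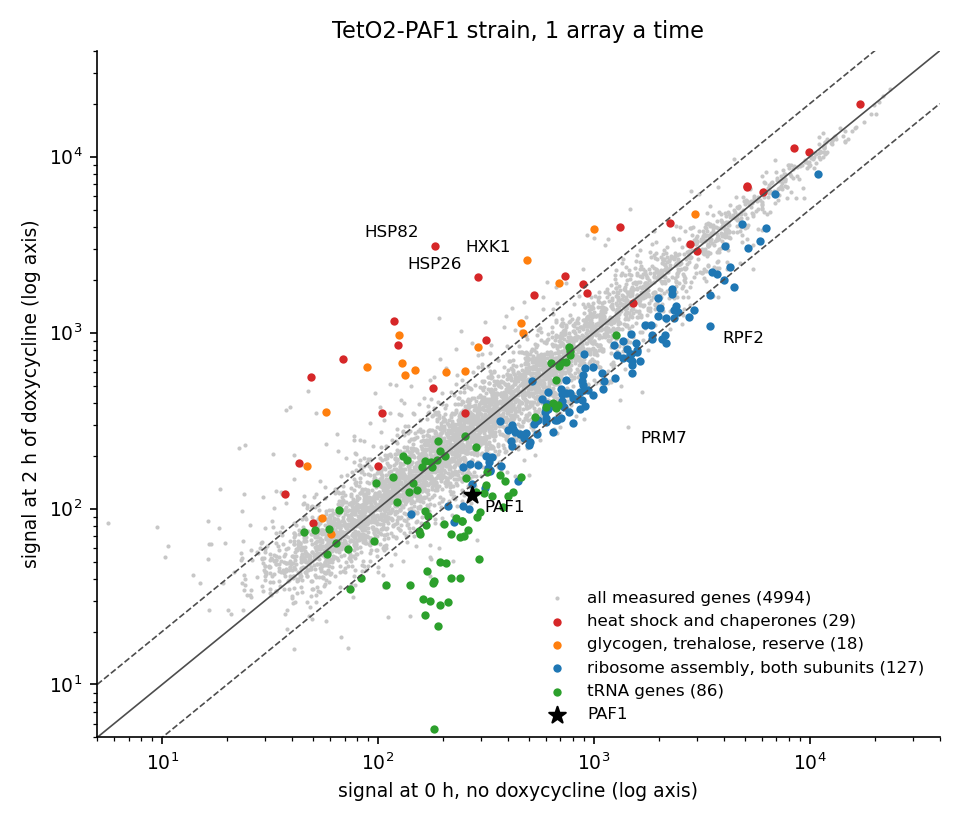
Signal at 2 h of doxycycline (vertical) against signal at 0 h (horizontal), both log axes, for 4994 measured genes, 1 array each. Solid and dashed lines mark equal signal and 2-fold differences. All 18 reserve carbohydrate genes and 27 of 29 heat shock genes lie above the diagonal and 126 of 127 ribosome assembly genes below it, while PAF1 lies just under the lower dashed line.

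PAF1 itself had a signal of 119 at 2 h, against 272 at 0 h, so 43.7% of its message signal remained. None of the later arrays was lower, at 139, 165, 184 and 166 after 4, 5, 6 and 8 h. Messages of the other subunits did not change by 2-fold. CTR9, the scaffold subunit, had 59.5 at 2 h and 66.6 at 0 h. CDC73 had 809 at 2 h and 734 at 0 h, and RTF1, the subunit that acts in H2B ubiquitylation, 164 at 2 h and 148 at 0 h. LEO1 was the lowest of these at 2 h relative to 0 h, with 360 against 553, 1.54-fold lower.

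**Figure D2:**
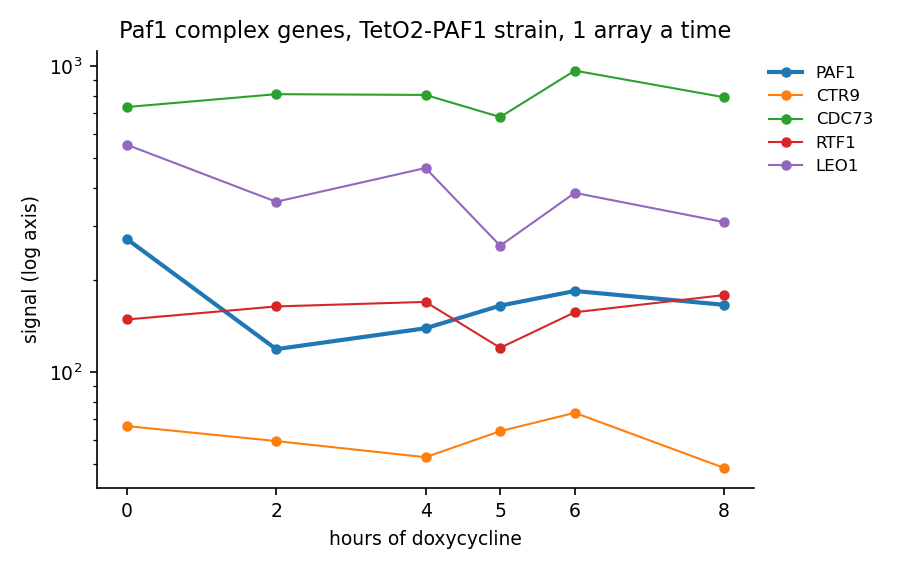
Signals of the 5 Paf1 complex genes (log axis) against hours of doxycycline in the TetO2-Paf1 strain, 1 array per time. PAF1 was lowest at 2 h, at 119, against 272 at 0 h, and CDC73 was lowest at 5 h, at 681.

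Heat shock and chaperone genes held the highest single gene at 2 h. HSP82, which encodes the stress-induced Hsp90 chaperone, had a signal of 3125 at 2 h and 184 at 0 h, 16.96-fold higher, and 1892, 3236, 3105 and 2601 at 4, 5, 6 and 8 h. Every doxycycline array was thus far above the array without the drug. Its close relative HSC82, the constitutive Hsp90 gene, had 6316 at 2 h and 6069 at 0 h. The 2 genes are near-identical in sequence, so their probe sets may share some RNA. A signal of 50 added to both arrays, as a check on dim signals, is given below where it shrank a fold by over 1.5 times. HSP78, a mitochondrial disaggregase gene, had 559 at 2 h and 48.8 at 0 h (11.4-fold, 6.16-fold with 50 added), and HSP104, the disaggregase of the cytosol, 851 at 2 h and 123 at 0 h (6.91-fold).

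The small heat shock protein genes HSP42 and HSP26, whose products bind unfolding proteins, were 9.81- and 7.05-fold higher at 2 h. They diverged later. HSP42 had 1161 at 2 h and 118 at 0 h, with 1521 at 5 h, whereas HSP26 had 2057 at 2 h and 292 at 0 h, with 311 at 5 h. At 5 h HSP26 was therefore near its level without doxycycline and HSP42 was not. HSP30, a plasma membrane protein gene that restrains the proton pump, had 709 at 2 h and 69.1 at 0 h (10.3-fold, 6.38-fold with 50 added).

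Of the 32 heat shock and chaperone genes listed, 29 were measured and 15 were at least 2-fold higher, 51.7% against 4.06% of all measured genes. None of the 29 was 2-fold lower. Their median log2 ratio was 1.09, against 0.04 over all genes. SSA4, a stress-induced Hsp70 gene, was 3.33-fold higher, and the partner genes of Hsp70 and Hsp90 SIS1 and AHA1 were 2.88- and 2.85-fold higher. STI1, which joins Hsp70 to Hsp90, had 3970 at 2 h and 1326 at 0 h. The mitochondrial J-protein gene MDJ1 was 2.70-fold higher. BTN2 and CUR1, which sort misfolded proteins, were 4.22- and 3.26-fold higher (2.49- and 1.96-fold with 50 added), HSP12 was 3.10-fold and HSP31 2.13-fold higher. Abundant constitutive members moved less. SSA1 had 19959 at 2 h and 17165 at 0 h, YDJ1 6805 at 2 h and 5100 at 0 h, and SSE1 2906 at 2 h and 2998 at 0 h. HSF1, the gene of the heat shock factor, had 351 at 2 h and 254 at 0 h, 1.38-fold higher.

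Genes for glycogen, trehalose and the entry of glucose into these stores had the highest median of the 50 lists. Of 20 listed, 18 were measured and 15 were at least 2-fold higher (83.3%, against 4.06% of all measured genes), with a median of 3.27-fold. None was below its 0 h signal. On the trehalose side, TSL1, a subunit of trehalose synthase, had 968 at 2 h and 126 at 0 h (7.70-fold). The catalytic and other subunits TPS1, TPS2 and TPS3 were 2.78-, 2.48- and 2.10-fold higher. NTH1 and NTH2, which encode trehalases and so act in the opposite direction, were 2.87- and 3.72-fold higher, NTH2 2.32-fold with 50 added.

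On the glycogen side GLC3, the branching enzyme gene, had 640 at 2 h and 88.6 at 0 h (7.22-fold). Both glycogen synthase genes were higher, GSY1 with 355 at 2 h and 57.7 at 0 h (6.16-fold, 3.76-fold with 50 added) and GSY2 with 673 at 2 h and 129 at 0 h (5.21-fold). Genes for breakdown were higher as well, 4.30-fold for the phosphorylase gene GPH1 and 2.38-fold for the debranching gene GDB1. Synthesis and breakdown genes thus moved in the same direction. HXK1, a hexokinase gene of glucose-poor cells, had 2573 at 2 h and 491 at 0 h (5.24-fold), the glucokinase gene GLK1 was 3.87-fold and its relative EMI2 2.83-fold higher, and PGM2, a phosphoglucomutase gene, was 4.12-fold higher. UGP1, which makes UDP-glucose, had 4701 at 2 h and 2931 at 0 h and did not reach 2-fold, nor did GLG2, with 71.7 at 2 h and 60.5 at 0 h.

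Of 37 general stress and antioxidant genes 33 were measured, with a median log2 ratio of 0.61. At least 2-fold higher were 12 (36.4%), against 4.06% of all measured genes, and none was 2-fold lower. GAD1, the glutamate decarboxylase gene, had 1217 at 2 h and 193 at 0 h (6.32-fold). CTT1, the cytosolic catalase gene, had 96.9 at 2 h and 23.5 at 0 h (4.12-fold, 2.00-fold with 50 added), the nicotinamidase gene PNC1 was 3.86-fold higher, DDR2 3.30-fold and the mitochondrial peroxiredoxin gene PRX1 3.10-fold. Members with other roles in defence were near their 0 h level, such as SOD1, the cytosolic superoxide dismutase gene, with 2213 at 2 h and 2182 at 0 h. GPX1 had 31.1 at 2 h and 39.8 at 0 h.

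The 20 highest genes with a signal of at least 117.5 (the median of all signals) on either array included 8 outside these 3 lists. YRO2, a membrane protein gene related to HSP30, had 467 at 2 h and 47.5 at 0 h (9.83-fold). AIM17, RGI1 and RTC3, whose roles are less clear, were 9.73-, 9.72- and 9.66-fold higher. PHM8, a nucleotidase gene, was 9.51-fold higher, with 231 at 2 h and 24.3 at 0 h. SOL4, which acts in the pentose phosphate pathway, was 6.99-fold, EGO4 6.77-fold and ARO10 6.28-fold higher. ARO10 encodes a decarboxylase of aromatic amino acid breakdown. Several of these folds rest on a dim 0 h signal, such as SOL4 at 18.5, AIM17 at 22.7, PHM8 at 24.3 and ARO10 at 32.7. These signals lay within the 0 h range of control probe sets without a target, which reached 39.6. With 50 added the folds were 5.30 for YRO2, 3.72 for AIM17, 4.74 for RGI1 and 4.81 for RTC3. They were 3.78 for PHM8, 2.62 for SOL4, 3.94 for EGO4 and 3.09 for ARO10.

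Mitochondrial functions were higher in smaller steps. Of 46 nuclear genes of the respiratory chain and the citric acid cycle 45 were measured. Of these, 44 lay above their 0 h signal, against 2686 of all 4994 measured genes. At least 2-fold higher were 7 (15.6%), against 4.06% of all measured genes, and the median was 1.42-fold. CYC7, an alternative cytochrome c gene, had 203 at 2 h and 41.0 at 0 h (4.94-fold, 2.78-fold with 50 added), and COX5B, the alternative form of an oxidase subunit, was 3.71-fold higher. Both alternative forms are known from cells short of oxygen. MDH1, the mitochondrial malate dehydrogenase gene, had 6421 at 2 h and 2829 at 0 h (2.27-fold), NDI1 was 2.56-fold and QCR10 2.22-fold higher. SDH2 lay just past the 2-fold mark, with 3800 at 2 h and 1898 at 0 h. HAP4, the regulator of respiratory genes, had 838 at 2 h and 397 at 0 h (2.11-fold).

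Of the 12 genes of the retrograde response, which links mitochondrial state to nuclear genes, 11 were measured. Of these, 4 (36.4%) were at least 2-fold higher, against 4.06% of all measured genes. IDH2 and IDH1, isocitrate dehydrogenase subunit genes, were 2.94- and 2.58-fold higher, CIT1 2.80-fold and DLD3 2.18-fold. CIT2, the usual marker of this response, lay just short of 2-fold with 443 at 2 h and 225 at 0 h, and reached 1557 at 5 h. In the list of mitochondrial ribosomal proteins 64 of 72 genes were above their 0 h signal, against 2686 of all 4994 measured genes. Their median was 1.22-fold. Only the list member MRP8 (3.18-fold), whose place in that list was not checked, passed 2-fold, 1.39% against 4.06% of all measured genes. Transcripts of mitochondrial DNA had 4 measured members with a median ratio of 0.999-fold.

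Vacuolar and autophagy genes were all above their 0 h signal, 16 of 16 measured, against 2686 of all 4994 measured genes. Past 2-fold were 3 (18.8%), against 4.06% of all measured genes. They were APE1, a vacuolar aminopeptidase gene, at 3.64-fold, its receptor gene ATG19 at 2.39-fold and the kinase gene ATG1 at 2.02-fold. Among 38 proteasome and ubiquitin genes only the polyubiquitin gene UBI4 passed, 2.63% against 4.06% of all measured genes. UBI4 had 1494 at 2 h and 477 at 0 h (3.13-fold). In glycolysis and fermentation 3 of 28 measured genes (10.7%) were 2-fold higher, against 4.06% of all measured genes. These were TDH1 (3.43-fold), a glyceraldehyde-3-phosphate dehydrogenase gene, the aldehyde dehydrogenase gene ALD6 (3.44-fold) and PYK2 (2.29-fold). Their list had a median log2 ratio of -0.02. The hexose transporter genes HXT6 and HXT5 were 2.18- and 2.06-fold higher, while HXT1, the transporter gene of glucose-rich cells, had 1694 at 2 h and 1899 at 0 h. HXT6 and HXT7 are nearly identical, and their family probe sets may share RNA.

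Genes for building ribosomes were lower. The small subunit processome is the particle that cuts and folds the precursor of ribosomal RNA. In its list 56 of 57 measured genes lay below their 0 h signal, against 2307 of all 4994 measured genes. Of the 57, 42 (73.7%) were at least 1.5-fold lower and 17 (29.8%) at least 2-fold lower, against 10.8% and 3.46% of all. In the list of large subunit assembly 70 of 70 measured genes lay below, 63 (90.0%) at least 1.5-fold and 23 (32.9%) at least 2-fold. The medians were 1.82- and 1.81-fold lower, so the 2 lists were alike in size. No member of either list was 1.5-fold higher. The member of the processome list above its 0 h signal was RRP7, with 534 at 2 h and 516 at 0 h.

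RPF2, which brings 5S ribosomal RNA into the large subunit, had 1086 at 2 h and 3461 at 0 h (3.19-fold lower). Its later signals were 3507, 2161, 2566 and 3542 at 4, 5, 6 and 8 h, so 2 h was its lowest array. RCL1, a gene of precursor RNA cleavage, had 143.4 at 2 h and 443 at 0 h (3.09-fold lower). The helicase genes DBP10 and HCA4 were 2.56- and 2.62-fold lower, RRP36 2.66-fold and TMA16 2.67-fold. NSR1, the nucleolin-like gene, had 1991 at 2 h and 4026 at 0 h (2.02-fold lower) and NOP1, which methylates ribosomal RNA, 3111 at 2 h and 4033 at 0 h (1.30-fold lower). SDA1 and MAK21, large subunit genes that the study had followed up and that are thus no independent evidence, were 2.13-fold lower, with 412 at 2 h and 877 at 0 h, and 1.74-fold lower, with 409 at 2 h and 712 at 0 h.

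The machinery around ribosome production moved less than the assembly factors. Of 35 measured genes of RNA polymerases I and III 28 lay below their 0 h signal, against 2307 of all 4994 measured genes. Of the 35, 12 (34.3%) were 1.5-fold lower, against 10.8% of all. Their median was 1.40-fold lower and none was past 2-fold. RPA34, a subunit of polymerase I, was the lowest of them with 1167 at 2 h and 2150 at 0 h (1.84-fold). Translation factors and tRNA synthetases lay below in 45 of 47 cases with a median of 1.20-fold lower, the eIF3 subunit gene RPG1 at 1.73-fold. Ribosomal protein genes themselves were nearly level. Of 137 listed, 80 were measured with a probe set of their own, 61 lay below their 0 h signal, the median was 1.07-fold lower and only RPL7B reached 1.5-fold lower, at 1.51-fold. Many ribosomal protein genes have a near-identical copy, and probe sets shared by several genes were left out.

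AAH1, which encodes adenine deaminase and is known to be lowered when cells stop growing, had 414 at 2 h and 1323 at 0 h (3.19-fold lower). With the purine synthesis gene ADE1 (2.27-fold lower) it was 1 of 2 of 19 measured purine genes past 2-fold, 10.5% against 3.46% of all measured genes. URA7, a CTP synthase gene, was the lowest of the GTP and pyrimidine list at 1.90-fold lower. Of the 15 measured genes of that list, 12 lay below their 0 h signal, against 2307 of all 4994.

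**Figure D3:**
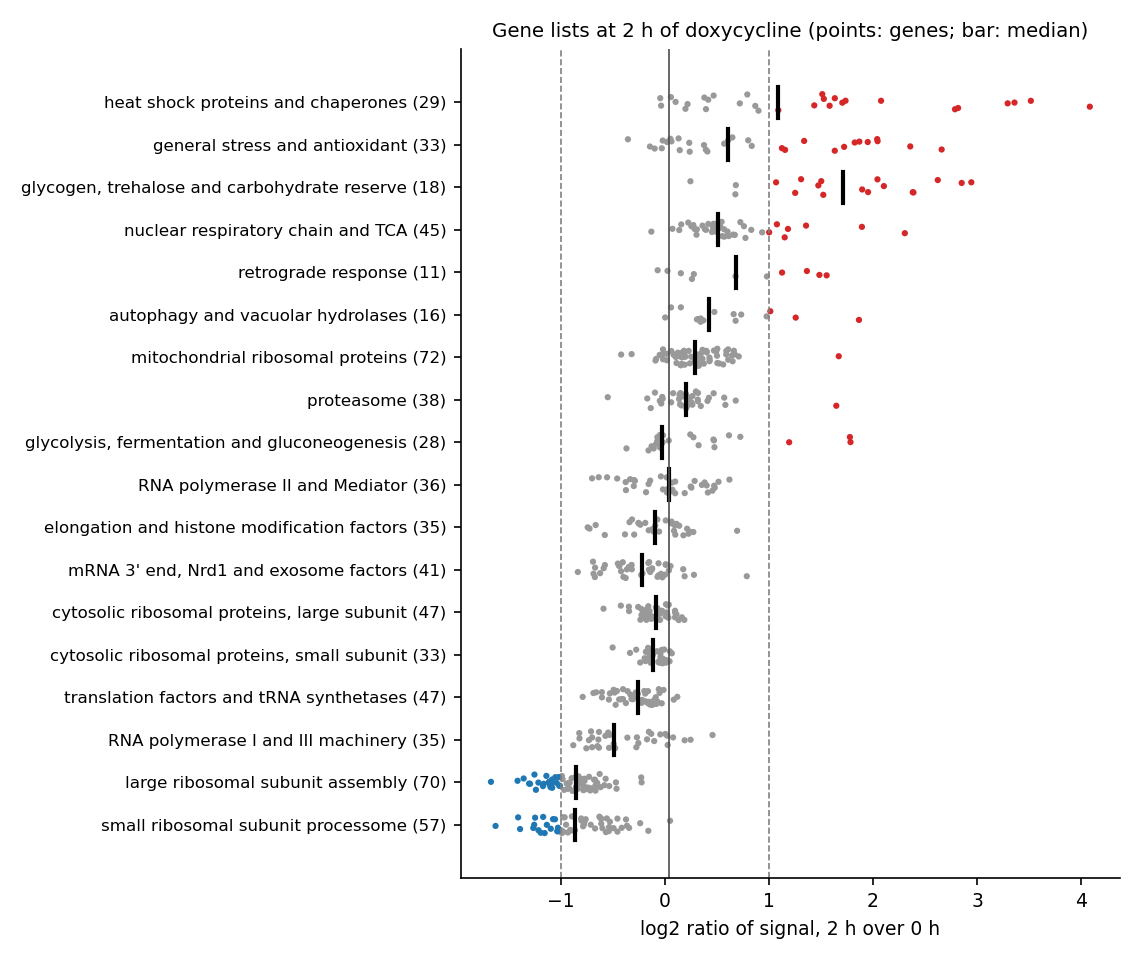
Log2 ratio of signal, 2 h over 0 h, for the measured genes (points) of 18 gene lists, with the list median as a black bar and the number of measured genes in brackets. Red and blue points are at least 2-fold higher or lower, dashed lines mark 2-fold and the grey line the median of all genes, 0.04. The medians run from 1.71 for the reserve carbohydrate list to -0.86 for the processome list.

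Transcription and RNA processing factors stayed within 2-fold. None of 35 measured elongation and histone modification genes, 36 genes of RNA polymerase II and Mediator, 41 genes of RNA 3' ends, Nrd1 and the exosome, 21 genes of messenger RNA decay or 49 spliceosome genes passed 2-fold in either direction. The widest in these lists were CCR4, the deadenylase gene, with 507 at 2 h and 943 at 0 h (1.86-fold lower), the exosome factor gene LRP1 (1.79-fold lower) and MPE1, a 3' end factor gene, with 579 at 2 h and 335 at 0 h (1.73-fold higher). The 3' end and exosome list lay below its 0 h signal in 32 of 41 cases, against 2307 of all 4994 measured genes. Its median log2 ratio was -0.22. Histone, ergosterol, pheromone response, glycosylation and secretion genes likewise had no member past 2-fold. Of 15 measured drug resistance genes only RSB1 passed (2.62-fold higher), 6.67% against 4.06% of all measured genes. The drug pump gene PDR5 had 4695 at 2 h and 4723 at 0 h.

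Among protein genes with a signal of at least 117.5 on either array, the lowest, down to AAH1, lay outside the assembly lists. RPF2 and RCL1 of those lists came next. Of the 121 protein genes at least 2-fold lower, 40 were in those lists. PRM7 had 292 at 2 h and 1443 at 0 h (4.94-fold lower), and its second probe set, with 117 at 2 h and 754 at 0 h, gave a log2 ratio of -2.69. The gene next to it, BSC1, had 24.4 at 2 h and 141 at 0 h (5.79-fold lower). Both lie side by side in the RefSeq annotation of assembly R64, and both were low on the 6 h array as well, with PRM7 at 270 and BSC1 at 4.1. ATF2, an alcohol acetyltransferase gene, had 50.6 at 2 h and 224 at 0 h (4.42-fold lower), and stayed between 62.5 and 88.4 at all later times. IZH4, a membrane protein gene tied to zinc, was 4.35-fold lower, ATO3, a gene of ammonium export, 3.63-fold with 457 at 2 h and 1662 at 0 h, the metal reductase gene FRE4 3.40-fold and ALT2 3.31-fold lower. FLC2 was 2.66-fold lower, with 201 at 2 h against 534 at 0 h and at least 567 later. Probe sets disagreed for 3 others. FLO10, a flocculin gene, was 4.20-fold lower by its brightest probe set, while another had 40.3 at 2 h and 15.7 at 0 h, and the brightest probe sets of BPH1 (3.19-fold lower) and GEA2 (2.80-fold lower) stood beside probe sets with log2 ratios of -0.31 and -0.07. With 50 added the folds were 2.57 lower for BSC1, 2.72 for ATF2, 2.22 for FRE4, 2.18 for ALT2 and 2.45 for FLO10. REX4 (2.76-fold) and NOP9 (2.52-fold), which act in ribosome assembly but are in neither list, were lower too.

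Transfer RNA genes filled 15 of the 20 lowest places under the naming rule, and 43 of their 86 measured genes were at least 2-fold lower, with a median of 1.94-fold lower. The lowest was SUP51, at 4.1 at 2 h and 182.1 at 0 h, and YNCD0009W had 21.6 at 2 h and 189 at 0 h, which with 50 added were 4.29- and 3.34-fold lower. The signals of these genes, which polymerase III transcribes, were not steady over the time course. Whether mature tRNA or other RNA gave these signals was not tested. At 0, 2, 4, 5, 6 and 8 h the median signals of 92 tRNA probe sets were 193, 96.2, 94.4, 77.8, 246 and 114, so the 0 h and 6 h arrays were high. Small nucleolar RNA genes were at least 2-fold lower in 7 of 47 cases (14.9%), against 3.46% of all measured genes. SNR73 led them, with 154 at 2 h and 498 at 0 h. Most tRNA probe sets are of a type that several genes of a family can share, and without tRNA genes the count of genes at least 2-fold lower was 130.

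**Figure D4:**
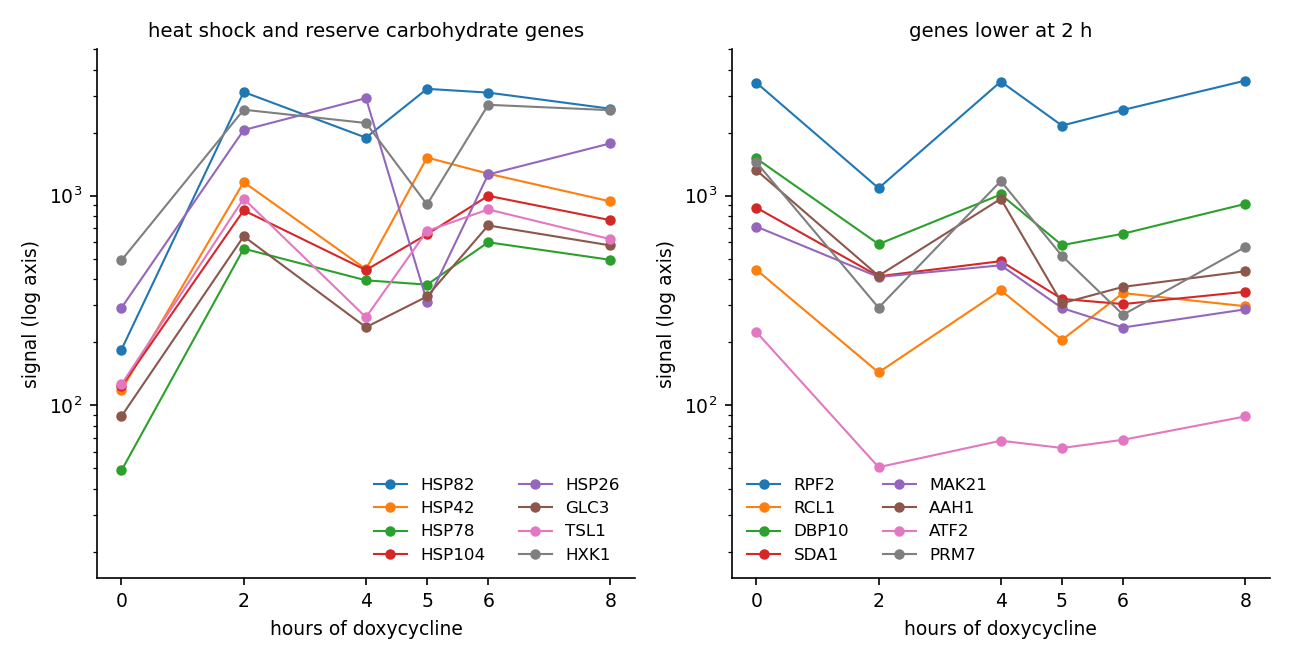
Signals (log axes) of 8 genes higher and 8 genes lower at 2 h against hours of doxycycline, 1 array per time. HSP82 stayed at 1892 or more after 0 h, HSP26 was near its 0 h level at 5 h (311), RPF2 at 4 h (3507) and 8 h (3542), and ATF2 stayed low.

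The later arrays share the 0 h array with the 2 h comparison, so their list medians are given side by side only. The reserve carbohydrate list had median log2 ratios to 0 h of 1.71, 1.18, 1.06, 1.57 and 1.57 after 2, 4, 5, 6 and 8 h. Heat shock genes had 1.09, 0.63, 0.93, 1.28 and 1.40 at the same times. The processome list had -0.86, -0.36, -0.90, -0.79 and -0.58. The 4 h medians were thus the smallest in size for the heat shock and processome lists, on the array with the low actin ratio, whose part in this was not tested.

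Cells that lack PAF1 for good were measured on arrays that share nothing with the 2 h and 0 h arrays, as a score per probe set whose scale the labels do not state. Score differences are therefore not folds. Of the 203 genes at least 2-fold higher at 2 h, 129 (63.5%) had both paf1 deletion scores above both wild type scores, against 20.4% of all 4994 measured genes. Only 14 (6.90%) had both below, against 24.0%. Of the 173 genes at least 2-fold lower at 2 h, 83 (48.0%) had both paf1 deletion scores below both wild type scores and 8 (4.62%) had both above. Without tRNA genes the lower share was 40.8%, against 23.2% of all. Of the 203 genes, 44 had a 0 h signal under 37.4 and so passed the filter only through the doxycycline arrays, and 21 of the 173 had a 2 h signal under it. Among genes with both signals at or above 37.4, 100 of 159 (62.9%) higher at 2 h had both deletion scores above, against 19.7% of all such genes. Of 152 lower at 2 h, 74 (48.7%) had both below, against 24.3%. Set against a single wild type array, both deletion scores were above it for 72.9% and 74.4% of the genes higher at 2 h, against 29.2% and 42.1% of all genes, for wild type replicates 1 and 2.

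In limma with Benjamini-Hochberg adjustment over 6493 probe sets, 18 of the 191 tested genes higher at 2 h passed an adjusted p of 0.05 in the paf1 deletion, all 18 higher, against 0.991% of all measured genes tested. The smallest adjusted p among them was that of HSP26, with scores of 8.79 and 8.58 in the paf1 deletion and 3.02 and 4.78 in wild type (difference 4.79, SE 0.62, limma adjusted p = 0.00727), and that of GLC3 was the same, with 8.47 and 8.59 in the deletion and 4.80 and 3.68 in wild type. AGP2, a membrane transporter gene 2.83-fold higher at 2 h, scored 5.95 and 6.99 in the deletion and 1.95 and 2.13 in wild type. The others were ARG3, CTS1, FMP46, GAD1, GCY1, GOR1, GPH1, HSP12, IGD1, MSC1, PAI3, PIR3, POT1, TFS1 and TSL1. HSP82, the highest gene at 2 h, scored 7.90 and 6.89 in the deletion and 4.57 and 5.88 in wild type and did not pass (limma adjusted p = 0.119). YRO2 had no such difference, with 6.65 and 7.80 in the deletion and 7.42 and 7.67 in wild type. All calls were lost without either wild type array.

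Among the 164 tested genes lower at 2 h, 2 passed as lower in the paf1 deletion, against 0.413% of all, and 1 as higher, against 0.991%. The 2 were ATF2 and PAF1, the gene that is targeted in both experiments, so the share of other genes was near the background. ATF2 scored 2.65 and 2.57 in the deletion and 6.74 and 6.83 in wild type (difference -4.17, SE 0.57, limma adjusted p = 0.00983). The 1 higher was RDN25-1, a ribosomal RNA gene, with 8.13 and 5.71 in the deletion and 3.51 and 1.73 in wild type. Its signal was 24.3 at 2 h and 111 at 0 h (2.17-fold lower with 50 added), but 213 at 5 h. FRE4, 3.40-fold lower at 2 h, scored 4.15 and 3.69 in the deletion and 5.80 and 8.34 in wild type, groups that did not overlap but did not pass (limma adjusted p = 0.0820).

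The lists differed in how they stood in the deletion. Both deletion scores lay above both wild type scores for 13 of 18 reserve carbohydrate genes, 14 of 29 heat shock genes, 16 of 33 general stress genes, 16 of 45 respiratory genes and 8 of 16 vacuolar genes, against 20.4% of all. For the 127 measured ribosome assembly genes both lay below in 28 cases (22.0%) and above in 9, against 24.0% and 20.4% of all. Their count below was thus near the background in the deletion, although 105 of the 127 were at least 1.5-fold lower at 2 h. RPF2 scored 6.62 and 6.09 in the deletion and 6.63 and 5.97 in wild type, and SDA1 7.50 and 7.28 in the deletion and 7.21 and 6.97 in wild type. Both deletion scores lay below both wild type scores for 58 of 86 tRNA genes (67.4%), against 24.0% of all.

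**Figure D5:**
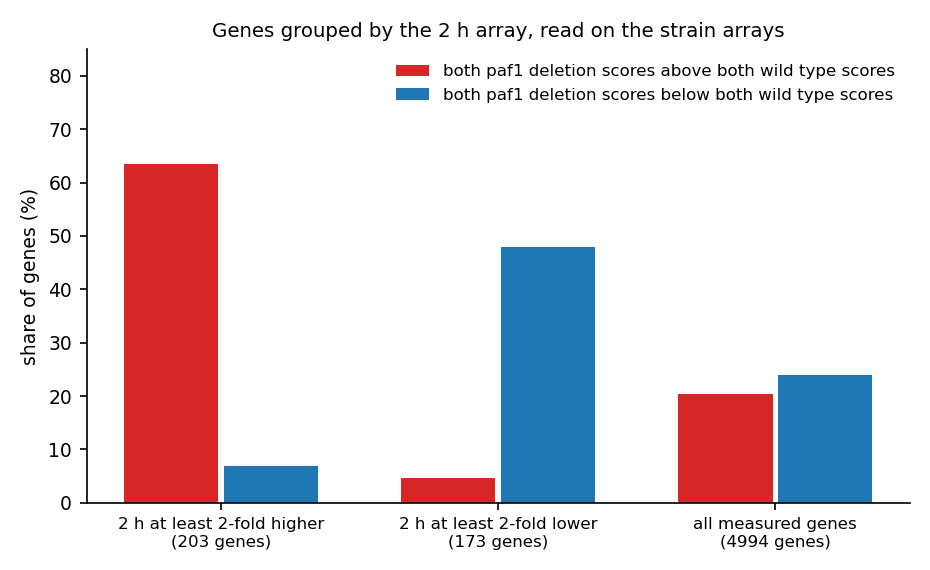
Share of genes (%, vertical axis from 0) whose 2 paf1 deletion scores both lay above (red) or both below (blue) the 2 wild type scores, for genes at least 2-fold higher at 2 h (63.5% and 6.90%), at least 2-fold lower at 2 h (4.62% and 48.0%) and all 4994 measured genes (20.4% and 24.0%).

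Of the 203 genes at least 2-fold higher at 2 h 83 belonged to any of the 50 lists, and of the 173 lower genes 49 did. Smaller groups held single genes past 2-fold. Among cell wall genes PIR3 (2.98-fold), SPI1 (2.18-fold) and GSC2 (2.09-fold) were higher and UTR2, a wall crosslinking enzyme gene, was 2.37-fold lower, with 2312 at 2 h and 5480 at 0 h. Of their list of 42, 7.14% were at least 2-fold higher and 4.76% lower, against 4.06% and 3.46% of all measured genes. Its median log2 ratio was 0.06. The chitinase gene CTS1, which separates daughter cells, was 2.49-fold higher. Among 23 measured permease genes AGP2 (2.83-fold), DIP5 (2.35-fold) and MUP3 (2.04-fold) were higher, 13.0% against 4.06% of all measured genes. None was 2-fold lower. Of 48 measured G1 to S genes only CDC6, an origin licensing gene, reached 2-fold lower, 2.08% against 3.46% of all measured genes. CDC6 had 114 at 2 h and 227 at 0 h. Of 27 G2 to M genes none reached 2-fold in either direction.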

How the data were processed

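The deposited value table held 11 arrays of 9335 probe sets. The 6 time course columns held, as deposited, a linear signal intensity that the authors had scaled per array (2% trimmed mean about 500). For the 5 strain arrays the deposited value was a score; its scale is not given in the sources used here, and neither are the software and background steps. The 60 control probe sets were left out. Exactly 1 gene was listed for 6504 probe sets, 328 had several and 2443 none. Names came from the platform annotation and RefSeq (R64). Signals were floored at 5.6 before log2, and probe sets with a mean under 37.4 were left out at gene level. Strain scores were fitted without a logarithm with limma 3.58.1 (lmFit, eBayes with a trend, R 4.3.3) on 5 arrays, filtered at the 30th percentile of the mean, two-sided, tested on simulated data beforehand. Nothing says whether replicates are separate cultures, so p-values may measure technical spread. The members, the 50 gene lists and the naming rule were chosen with earlier results of these data known. The rule named Paf1 complex genes, SDA1, MAK21, the 20 largest ratios in each direction among genes with a signal of at least 117.5 on either array, and list members past 2-fold or with the largest ratios. Because tRNA genes filled 15 of the 20 lowest places, the lowest protein genes were added after the values were seen, as were the tRNA and small nucleolar RNA classes, the constitutive chaperones and the genes read in the deletion. Promoter motifs were planned and not analysed here. Other floors, scalings, filters and folds were tried.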

Additional observations from a re-analysis of the deposited data

How the results depend on the processing

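The counts at 2 h depended on how dim signals were treated. Of all probe sets, 307 were at least 2-fold higher and 305 lower with a floor at the 20th percentile, 121 and 122 with a pseudocount of 50, 262 and 265 above the filter, 1303 and 1265 at 1.5-fold and 183 and 190 at 3-fold. Of measured genes, 115 were higher and 97 lower with the pseudocount, 562 and 538 at 1.5-fold and 80 and 42 at 3-fold. Median centring and quantile normalization moved each of these counts by less than 1.5 times. Medians near 0 crossed it for 5 of the 50 lists. The median log2 ratio of mRNA decay genes was 0.00, and -0.04 centred and -0.01 with quantile normalization. That of mitochondrial DNA transcripts was -0.00, and 0.01 with the pseudocount or quantile normalization and 0.05 over all probe sets of a gene. That of glycolysis was -0.02, and 0.02 with quantile normalization, that of phosphate starvation -0.03, and 0.02 over all probe sets, and that of glycosylation 0.01, and -0.03 centred. No named gene changed direction, and 36 of 248 values of single genes moved by over 0.47, the SD between probe sets of a gene on the log2 scale, mostly towards 0 with the pseudocount. In the deletion, leaving out genes under the filter limit on either array, chosen after seeing the data, moved the shares by little. Of the strain arrays, 111 probe sets passed in limma (963 at an unadjusted p under 0.05), 41 without a filter, 56 with a filter at the 50th percentile, 42 with quantile normalization and 39 without a trend, and 0 to 185 when 1 replicate was left out, 0 without either wild type array (706 and 1029 at an unadjusted p under 0.05). On the wild type and paf1 deletion arrays only, 94 passed, and 224 with a replicate block. Same-numbered arrays correlated in their deviations at 0.03. With 2 arrays per group this cannot show whether they share more than a number. No paired analysis was possible for 2 h against 0 h because each side is 1 array.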

Other observations

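Some further genes moved in pairs or in opposite directions, and all of those named here were chosen after their values were seen. All but ZRT1 are in none of the lists. ARO9 and ARO10, which act in the breakdown of aromatic amino acids, were both higher at 2 h, ARO9 with 501 at 2 h and 120 at 0 h and ARO10 with 205 at 2 h and 32.7 at 0 h. The polyamine exporter genes TPO4 and TPO2 had 456 and 351 at 2 h, against 96.4 and 114 at 0 h. TPO2 reached 1427 at 4 h. Of the zinc-linked membrane protein genes, IZH4, IZH2 and IZH1 had 66.0, 335 and 1353 at 2 h, against 287, 826 and 2833 at 0 h, and the zinc transporter gene ZRT1 had 1692 at 2 h and 3412 at 0 h. IZH4, IZH2 and ZRT1 were at or near their 0 h signal or above it on the 4 h array (283, 882 and 5573).

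Close relatives did not always move together. GPD1, the glycerol phosphate dehydrogenase gene of osmotic stress, had 2292 at 2 h and 888 at 0 h, while GPD2, its relative used without oxygen, had 496 at 2 h and 1119 at 0 h. On the strain arrays GPD2 scored 6.10 and 4.79 in the paf1 deletion and 7.61 and 7.44 in wild type, and did not pass (limma adjusted p = 0.111). ATO2 had 63.0 at 2 h and 16.5 at 0 h, whereas ATO3 of the same family had 457 at 2 h and 1662 at 0 h. SDP1, a stress-responsive phosphatase gene, had 82.8 at 2 h and 5.2 at 0 h. The 0 h signal lies under the floor of 5.6 and at the level of control probe sets without a target, so no ratio is given. It stayed between 65.1 and 87.6 at all later times.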
